A study of Rattus norvegicus with 24 samples.

Results

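The expression of 10 transporter genes of the proximal tubule was examined in 24 male rats of the PKD/Mhm (Cy/+) line, from whole left kidneys. The genes were chosen by name, with earlier results of these data known. They were the sodium-coupled sugar carriers Slc5a1, Slc5a2 and Slc5a10, the facilitative sugar carriers Slc2a2 and Slc2a5, the sodium-coupled monocarboxylate carriers Slc5a8 and Slc5a12, the sodium-proton exchanger Slc9a3, the sodium-bicarbonate cotransporter Slc4a4 and the dicarboxylate carrier Slc13a3. All 10 were found by symbol among the 17334 genes of the deposited tables, and all 10 passed the filter on low counts that left 12778 genes for testing.

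All animals, controls included, were heterozygous for the Cy mutation, a missense change in Anks6 that gives cystic kidneys. Cystic animals had been picked out by palpation of the abdomen, so no group without the disease was sampled. Samples were taken at 8 months of age, after monthly treatment over 6 months. The 6 animals of the control group (Ctrl) were untreated. A second group of 6 received conditioned medium (CoCM), collected from human skin-derived ABCB5+ cells that were cultured together with THP-1-derived macrophages under IFN-γ and LPS. The route of CoCM is not given in the same way throughout the study. The third group of 6 received the ABCB5+ cells into the peritoneal cavity (i.p. ABCB5+) and the fourth group of 6 received them into a vein (i.v. ABCB5+). Control animals carried lower animal numbers than every treated animal, so the order of the animals and the treatment cannot be told apart in any comparison with Ctrl.

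The proximal tubule takes back almost all filtered glucose and lactate, most of the bicarbonate and much of the sodium. SGLT2 (Slc5a2) carries the bulk of the glucose across the luminal membrane of the early, convoluted part, SGLT1 (Slc5a1) takes up what is left in the late, straight part, and GLUT2 (Slc2a2) lets glucose out into the blood. The monocarboxylate carriers are arranged in the same way, with the low-affinity carrier SMCT2 (Slc5a12) early and the high-affinity carrier SMCT1 (Slc5a8) late.

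Total counts were between 9304630 and 14125457 per animal. The RNA came from whole kidney, so fewer proximal cells and less RNA per proximal cell cannot be told apart. Markers of the proximal tubule summed to between 2023 and 17163 TPM (a level scaled to transcript length and library total), those of the thick ascending limb to between 984 and 5961 TPM, and those of podocytes to between 150.3 and 491 TPM. A set of 4 libraries stood apart from the rest on the first principal component, which held 56.3% of the variance: CoCM animal 39, i.p. ABCB5+ animal 38 and i.v. ABCB5+ animals 36 and 37. Their animal numbers, 36 to 39, form an unbroken run, so the order of the animals and the state of these kidneys cannot be told apart. In these 4 animals the 8 markers of injured tubules summed to between 994 and 1283 TPM, against 8398 to 16549 TPM in the other 20, and the 10 proximal tubule markers to between 9495 and 17163 TPM, against 2023 to 8783 TPM. The 4 macrophage markers summed there to between 33.6 and 91.9 TPM, against 193 to 498 TPM in the other 20, the 3 T cell markers to between 5.41 and 10.47 TPM, against 37.2 to 87.9 TPM, and the 5 fibroblast markers to between 184 and 236 TPM, against 245 to 948 TPM. The part of these differences in the results was not tested, and values without the 4 libraries stand beside those of all animals.

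Slc13a3, which takes up succinate and other dicarboxylates from the blood side, had the highest level of the 10 genes, with a median of 188 TPM over the 24 animals. Slc5a2 and Slc2a2 followed with medians of 90.1 and 86.6 TPM. Slc5a2 was above Slc2a2 in 14 of 24 animals, so this pair did not have a fixed order. Slc5a10, a luminal carrier of mannose and fructose, had a median of 68.7 TPM. Lower came Slc5a12 with 25.4, Slc4a4 with 18.8, Slc2a5 with 17.4, Slc9a3 with 14.6 and Slc5a1 with 11.8 TPM. Slc4a4 was above Slc2a5 in 12 of 24 animals, and all neighbours in this order had overlapping ranges. Slc5a8 came last with 2.73 TPM and was below Slc5a1 in 24 of 24 animals. In Ctrl the order was the same for the 3 highest genes, whereas in CoCM and i.p. ABCB5+ Slc5a10 stood second, with 87.4 and 79.6 TPM.

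The levels varied widely between animals. In Ctrl the SD of log2 CPM (a count per library of equal depth, after TMM scaling) was 0.23 for the median gene. It was 1.27 for Slc5a8, 1.09 for Slc13a3, 1.002 for Slc2a5 and 0.99 for Slc5a10. Slc2a2 had the smallest SD of the 10 in Ctrl, 0.23, and Slc5a12 and Slc5a2 followed with 0.39 and 0.43, so 9 of the 10 were above the median gene. In the 4 libraries that stood apart, Slc2a2 was at 36.3 to 71.6 CPM, below all other animals, which began at 111 CPM. Slc13a3 was there at 1085 to 1354 CPM, above all other animals, which reached 877 CPM. Slc9a3 was at 114 to 166 CPM, also above all other animals, which reached 93.5 CPM.

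**Figure D1:**
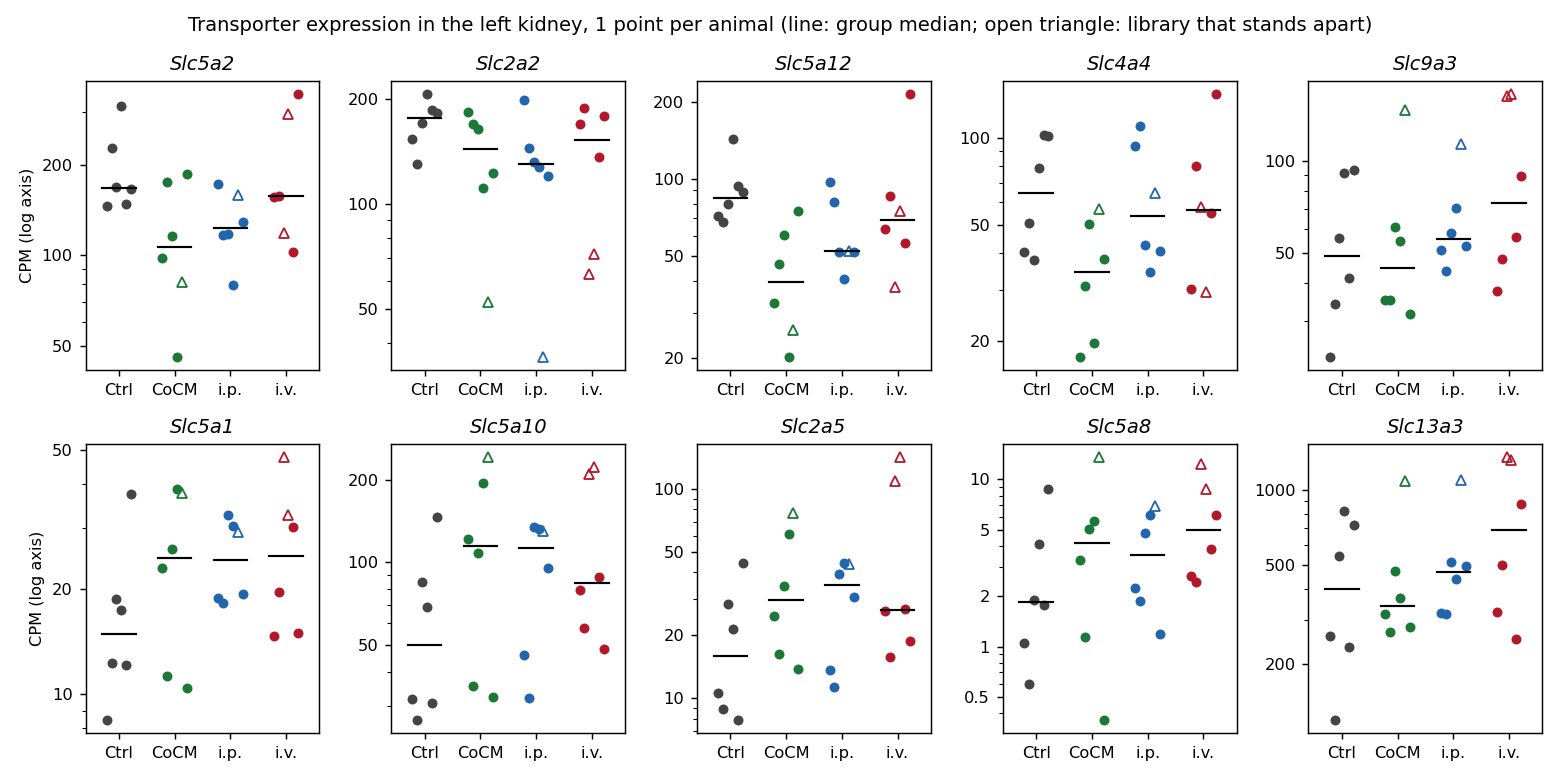
CPM (scaled counts, log axis) of the 10 transporters in each of 24 animals, by group, with points for animals, lines for group medians and open triangles for the 4 libraries that stood apart. The triangles are lowest for Slc2a2 and highest for Slc9a3 and Slc13a3, and all groups overlap in every panel.

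The promoters of Slc5a2 and Slc5a12, and of Slc5a10 and Slc2a5, are shown because the members of each pair varied together across animals. They are the 250 bases before the start of each gene in RefSeq, build GRCr8, written along the gene's strand and matched for all 10 transporters. Capitals mark the letters CCAAT, the core of a common promoter box, on either strand (ATTGG where it lies on the other strand). The positions are chr1:192277371-192277620 (+) for Slc5a2, chr3:117633637-117633886 (+) for Slc5a12, chr10:46898461-46898710 (−) for Slc5a10 and chr5:165865929-165866178 (+) for Slc2a5.
Slc5a2: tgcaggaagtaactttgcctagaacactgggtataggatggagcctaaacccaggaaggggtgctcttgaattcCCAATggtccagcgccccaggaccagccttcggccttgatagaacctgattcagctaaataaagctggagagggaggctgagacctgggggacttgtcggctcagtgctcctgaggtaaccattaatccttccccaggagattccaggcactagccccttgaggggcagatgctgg
Slc5a12: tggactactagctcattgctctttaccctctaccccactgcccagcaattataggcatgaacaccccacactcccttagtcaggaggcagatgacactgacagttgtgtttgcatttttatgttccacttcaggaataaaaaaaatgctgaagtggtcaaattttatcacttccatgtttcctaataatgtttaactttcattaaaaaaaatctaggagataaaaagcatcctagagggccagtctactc
Slc5a10: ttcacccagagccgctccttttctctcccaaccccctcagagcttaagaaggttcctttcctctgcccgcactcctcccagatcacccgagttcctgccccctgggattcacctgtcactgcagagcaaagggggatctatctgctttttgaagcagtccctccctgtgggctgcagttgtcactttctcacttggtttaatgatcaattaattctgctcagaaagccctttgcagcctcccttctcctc
Slc2a5: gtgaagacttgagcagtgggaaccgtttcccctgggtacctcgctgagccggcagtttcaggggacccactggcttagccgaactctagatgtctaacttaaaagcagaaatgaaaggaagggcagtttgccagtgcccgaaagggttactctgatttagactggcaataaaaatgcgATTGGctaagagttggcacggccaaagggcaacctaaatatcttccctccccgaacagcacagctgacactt

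CCAAT was found in 2 of 10 transporter promoters, Slc5a2 and Slc2a5, and in 11385 of 33469 rat promoters of the same length. It began at −176 from the gene start in Slc5a2 and at −72, on the other strand, in Slc2a5, so in each pair 1 promoter held it and its partner did not. All other motifs were searched on both strands too. GGGCGG was in Slc9a3 and Slc13a3 (30.5% of all promoters). The HNF4 direct repeat (AGGTCA, any letter, AGGTCA) was in 0 of 10 (0.0508%), AGGTCA alone, which is part of that repeat, in Slc2a2 (14.1%), and TATAAA in 0 of 10 (12.9%). The share of G and C was 54.8% in Slc5a2, 39.6% in Slc5a12, 53.2% in Slc5a10 and 50.8% in Slc2a5, beside a median of 51.2% over all promoters, and it was highest of the 10 in Slc4a4, with 80.8%. The motifs other than the repeat were chosen after the sequences had been seen, and no factor was measured.

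Each treatment was first compared with Ctrl to ask whether it moved the transporters. The same 6 Ctrl animals served in all 3 comparisons, which are therefore not independent. In the edgeR quasi-likelihood test with Benjamini-Hochberg adjustment over 12778 genes, 0 of 10 transporters passed an adjusted p of 0.05 in CoCM, where 0.00783% of all genes did, and 0 of 10 passed in the i.p. group, in the i.v. group and in the test over all 4 groups, where 0% of all genes did. At an unadjusted p under 0.05 there were 3 of 10 in CoCM, all lower, beside 5.96% of all genes lower and 11.9% in either direction. There were 0 of 10 in the i.p. group (1.77% of all genes) and 1 of 10 in the i.v. group, a higher value (4.44% of all genes higher and 5.78% in either direction). Without the 4 libraries edgeR had 2 of 10 in CoCM, 0 of 10 in the i.p. group and 0 of 10 in the i.v. group at an unadjusted p under 0.05, beside 16.9%, 1.39% and 1.23% of all genes. In the cell groups DESeq2 also called 0 of 10 after adjustment, beside 0.0065% of all genes in each, as did limma voom with sample quality weights, beside 0%. At an unadjusted p under 0.05 DESeq2 had 0 in the i.p. and 1 in the i.v. group, beside 2.07% and 6.79% of all genes, and limma voom had 4 and 0, beside 9.72% and 6.07%. For 0 of 10 transporters were the ranges of a treated group and Ctrl apart, beside 1.38% of all genes in CoCM, 0.047% in the i.p. group and 0.11% in the i.v. group.

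The 3 transporters with an unadjusted p under 0.05 in CoCM were Slc5a12, Slc4a4 and Slc5a2, for lactate, bicarbonate and glucose. DESeq2 called 0 of 10 transporters after adjustment (0.607% of all genes) and had the same number, 3, at an unadjusted p under 0.05 (11.6% of all genes). Limma voom with sample quality weights called 1, Slc5a12, with a log2 fold change of −1.34 and an adjusted p of 0.0492, beside 1.43% of all genes called, and had 3 at an unadjusted p under 0.05, beside 22.2%. Limma on log2(TPM + 1) called 0, beside 0% of all genes, with 3 at an unadjusted p under 0.05, beside 10.3%.

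Slc5a12, the low-affinity lactate carrier, was at 68.0 CPM in the lowest, 84.2 in the median and 143 in the highest Ctrl animal, and at 20.2, 39.5 and 74.8 CPM in CoCM. Of the 6 CoCM animals, 5 lay below the lowest Ctrl animal, and only the highest reached into the Ctrl range. The log2 fold change was −1.07 ± 0.36 (SE, 95% interval −1.82 to −0.32), with an unadjusted p of 0.00743 and an adjusted p of 0.321 by edgeR. Leaving out the 4 libraries gave −0.97, with an adjusted p of 0.238 by edgeR. In the i.p. group Slc5a12 was at 40.5, 52.1 and 97.0 CPM, with 4 of 6 animals below the lowest Ctrl animal and a log2 fold change of −0.54 ± 0.36 (adjusted p = 0.978, edgeR) that was −0.48 without the 4 libraries. In the i.v. group it was at 37.98, 69.2 and 214 CPM, and the interval of the log2 fold change, −0.78 to 0.70, lay on both sides of 0, while the value without the 4 libraries was 0.20. Animal 43 of the i.v. group held the highest level of all 24 animals. In the test over the 4 groups Slc5a12 had the smallest p of the 10 genes, 0.0267 unadjusted and 0.817 adjusted by edgeR. It was the 1 transporter of 10 with an unadjusted p under 0.05 there, beside 4.71% of all genes. Without the 4 libraries there were 2 of 10, Slc5a12 with an unadjusted p of 0.0315 and Slc4a4 with 0.0440 by edgeR, beside 6.23% of all genes.

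Its high-affinity counterpart Slc5a8 was at 0.597, 1.84 and 8.71 CPM (lowest, median and highest) in Ctrl, and at 0.364, 4.17 and 13.7 CPM in CoCM. In the i.p. group it was at 1.18, 3.51 and 6.90 CPM and in the i.v. group at 2.44, 4.98 and 12.4 CPM. The medians of all 3 treated groups were above that of Ctrl, but the Ctrl range covered most treated animals. The log2 fold changes were 0.66 ± 0.69 in CoCM, 0.34 ± 0.69 in the i.p. group and 0.99 ± 0.68 in the i.v. group (SE). In the 20 other animals they came to 0.00, 0.11 and 0.31. The lowest animal had 5 counts, the fewest of the 10 genes and close to the floor of 3 counts.

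Slc5a2, the main glucose carrier of the early tubule and the target of the gliflozin drugs, was at 145 CPM in the lowest, 167 in the median and 313 in the highest Ctrl animal. In CoCM it was at 45.9, 107 and 187 CPM, with 4 of 6 animals below the lowest Ctrl animal. This was a log2 fold change of −0.73 ± 0.32 (SE, 95% interval −1.40 to −0.06), with an unadjusted p of 0.0341 and an adjusted p of 0.396 by edgeR. Leaving out the 4 libraries gave −0.65, with an unadjusted p of 0.0681 by edgeR. In the i.p. group it was at 79.5, 123.5 and 173 CPM, again with 4 of 6 animals below the lowest Ctrl animal, and the log2 fold change was −0.59 ± 0.32 with an unadjusted p of 0.0803 and an adjusted p of 0.978 by edgeR, or −0.65 without the 4 libraries. In the i.v. group it was at 102 CPM in the lowest, 157 in the median and 343 in the highest animal, so the group reached both below and above Ctrl. There the log2 fold change was 0.01 ± 0.32, and it turned below 0 in 7 of 10 alternative settings. Slc5a2 shares its position with Rusf1 in the RefSeq annotation, and Slc13a3 with Elmo2, and whether reads were assigned by strand is not given in the sources used here.

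Slc5a1, the glucose carrier of the late tubule, was at 8.47, 14.9 and 37.4 CPM in Ctrl and at 10.4, 24.5 and 38.6 CPM in CoCM. It was at 18.2, 24.3 and 32.5 CPM in the i.p. group, where 6 of 6 animals were above the Ctrl mean, and at 14.7, 24.9 and 47.8 CPM in the i.v. group. A single Ctrl animal, number 24, lay above all treated animals but 3 and far above the other 5 controls. The log2 fold changes were 0.46 ± 0.37, 0.48 ± 0.37 and 0.58 ± 0.37 (SE), with adjusted p-values of 0.576, 0.978 and 0.673 by edgeR. In the 20 other animals they were 0.28, 0.42 and 0.15.

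The ratio of Slc5a1 to Slc5a2, late to early glucose carrier in TPM, was given as a description. In Ctrl it was 0.0481, 0.0621 and 0.200 in the lowest, median and highest animal. In CoCM it was 0.0494, 0.203 and 0.742, in the i.p. group 0.0966, 0.150 and 0.337, and in the i.v. group 0.0388, 0.104 and 0.356. All groups overlapped. With the 4 libraries left out, the medians of the treated groups were 0.198, 0.138 and 0.0967.

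Slc2a2, the exit for glucose on the blood side, was at 130.5, 176 and 206 CPM in Ctrl, at 52.1, 143 and 184 CPM in CoCM, at 36.3, 129.99 and 199 CPM in the i.p. group and at 63.0, 153 and 189.0 CPM in the i.v. group. The lowest animals of the treated groups were those that stood apart. The log2 fold changes were −0.36 ± 0.33, −0.43 ± 0.33 and −0.35 ± 0.33 (SE). Without the 4 libraries they were −0.20, −0.24 and −0.03, and the standard error was 0.16 to 0.17.

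Slc2a5, the fructose carrier GLUT5, had the only log2 fold change with an unadjusted p under 0.05 in the i.v. group. It was at 7.90 CPM in the lowest, 16.0 in the median and 44.3 in the highest Ctrl animal, and at 15.7, 26.5 and 143 CPM in the i.v. group. The 2 animals of that group above the Ctrl range were 36 and 37, with 110.1 and 143 CPM, both among the libraries that stood apart. The log2 fold change was 1.48 ± 0.60 (SE, 95% interval 0.25 to 2.72), with an unadjusted p of 0.0209 and an adjusted p of 0.673 by edgeR. It was 0.11 ± 0.50 once the 4 libraries were left out. In CoCM Slc2a5 was at 13.8, 29.7 and 76.8 CPM and in the i.p. group at 11.3, 34.9 and 44.5 CPM, with log2 fold changes of 0.90 ± 0.59 and 0.59 ± 0.59 that were 0.56 and 0.46 without the 4 libraries.

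Slc5a10 was at 26.7, 50.3 and 147 CPM in Ctrl, at 32.4, 115 and 242 CPM in CoCM, at 32.1, 113 and 135 CPM in the i.p. group and at 48.2, 84.1 and 223 CPM in the i.v. group. The groups overlapped over most of their ranges. The log2 fold changes were 0.91 ± 0.54, 0.55 ± 0.54 and 0.86 ± 0.54 (SE), and 0.58, 0.43 and 0.07 without the 4 libraries. Fam83g shares the position of Slc5a10 in the RefSeq annotation and was not analysed here.

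Slc4a4, which moves bicarbonate with sodium into the blood, was at 37.9 CPM in the lowest, 64.9 in the median and 103 in the highest Ctrl animal, and at 17.5, 34.6 and 57.0 CPM in CoCM. All 6 CoCM animals were below the Ctrl mean and 3 were below the lowest Ctrl animal. This gave a log2 fold change of −0.95 ± 0.40 (SE, 95% interval −1.78 to −0.11), with an unadjusted p of 0.0278 and an adjusted p of 0.383 by edgeR. Leaving out the 4 libraries gave −1.15, with an adjusted p of 0.237 by edgeR. In the i.p. group Slc4a4 was at 34.6, 53.7 and 110.1 CPM and in the i.v. group at 29.4, 56.5 and 142 CPM. Both ranges extended past that of Ctrl at both ends, and the log2 fold changes were −0.09 ± 0.40 and −0.06 ± 0.40, or −0.08 and 0.16 without the 4 libraries.

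Slc9a3, the sodium-proton exchanger NHE3 of the luminal membrane, was at 22.95, 48.9 and 93.5 CPM in Ctrl, at 31.7, 44.995 and 147 CPM in CoCM, at 43.9, 55.7 and 114 CPM in the i.p. group and at 37.7, 73.0 and 166 CPM in the i.v. group. The highest animal of each treated group was one that stood apart. The log2 fold changes were 0.10 ± 0.43, 0.20 ± 0.43 and 0.72 ± 0.43 (SE), and −0.40, −0.03 and 0.03 without the 4 libraries. Slc13a3 was at 119, 399 and 821 CPM in Ctrl, at 269, 341 and 1085 CPM in CoCM, at 317, 465 and 1097 CPM in the i.p. group and at 250.2, 688.5 and 1354 CPM in the i.v. group. Its log2 fold changes were 0.05 ± 0.49, 0.24 ± 0.49 and 0.78 ± 0.49, and −0.41, −0.11 and 0.12 without the 4 libraries. For both genes the sign in CoCM and in the i.p. group turned with those libraries.

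**Figure D2:**
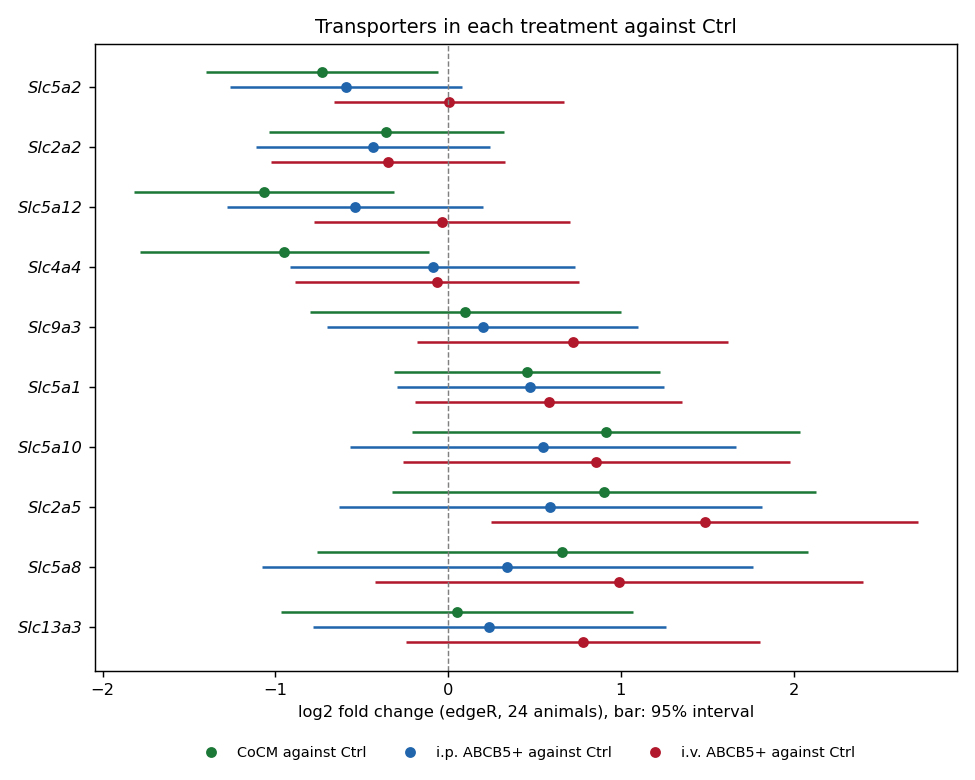
Log2 fold changes of the 10 transporters in CoCM (green), i.p. ABCB5+ (blue) and i.v. ABCB5+ (red) against Ctrl, edgeR fit over 24 animals, with bars for 95% intervals. The interval lies below 0 for Slc5a2, Slc5a12 and Slc4a4 in CoCM and above 0 for Slc2a5 in the i.v. group, all before adjustment for the number of genes.

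The 2 routes of the same cells were compared directly. The log2 fold change of i.p. against i.v. ABCB5+ was below 0 for 10 of 10 transporters, beside 49.8% of all genes above 0, and the median was −0.51 against 0.00 for all genes tested. Of the proximal tubule markers 0 of 10 were above 0, with a median of −0.63. The same held for 0 of 8 enzymes of gluconeogenesis and fructose use, with a median of −0.73. Without the 4 libraries 5 of 10 markers and 2 of 8 enzymes were above 0, with medians of 0.003 and −0.068, beside 49.9% of all genes. By edgeR 0 of 10 passed the adjusted threshold and 0 of 10 had an unadjusted p under 0.05, where 0% and 2.14% of all genes did. DESeq2 and limma voom with sample quality weights also gave 0 of 10 on both counts, beside 0.013% and 2.54% of all genes with DESeq2 and 0% and 6.93% with limma voom. The smallest unadjusted p was 0.0779, for Slc5a2 (log2 fold change −0.60 ± 0.32, adjusted p = 0.9999, edgeR). The intervals reached from −2.11 to 0.33 for Slc2a5 and from −0.77 to 0.59 for Slc2a2. Without the 4 libraries, of which 2 were i.v. and 1 was i.p., Slc5a1, Slc5a10 and Slc2a5 were above 0 with values of 0.27, 0.36 and 0.35, the median of the 10 was −0.21, and 0 of 10 had an unadjusted p under 0.05, beside 1.13% of all genes. With limma voom and sample quality weights 6 of 10 were above 0.

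The transporters were next compared with each other across animals. Correlations of log2 CPM were computed over the 20 animals left without the 4 libraries, for 45 pairs, with permutation tests over animals. Slc5a10 and Slc2a5 were the closest pair, with a Pearson r of 0.96 and a Spearman rho of 0.96, each with a permutation p of 1e-05, the smallest that 100000 permutations can give, and adjusted p-values of 7.5e-05 and 0.000225. Without the 2 animals farthest from the median of Slc5a10 r was 0.95, and with the group means removed it was 0.96. These are carriers of fructose of 2 different families. The permutation p is set against no correlation at all, and the share over all pairs of genes was not computed. Outside the 10 transporters, Slc5a10 had a higher rho with F2, Gss and Serpinf2 (0.992, 0.991 and 0.988), so the closeness is not particular to this pair.

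Slc5a12 and Slc4a4 formed the closest pair by rho among the 3 genes named for CoCM, with r = 0.84 (permutation p = 1e-05, adjusted 7.5e-05) and rho = 0.80 (permutation p = 4e-05, adjusted 0.00036). Slc5a2 and Slc5a12 followed with r = 0.87 (permutation p = 1e-05, adjusted 7.5e-05) and rho = 0.69 (permutation p = 0.00111, adjusted 0.00499). Without the 2 animals farthest from the median of the first gene of each pair r was 0.78 and 0.73. With the group means removed it was 0.80 and 0.85.

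After their values were seen, 8 of the transporters were placed by hand in 2 sets, and Slc9a3 and Slc13a3 in neither. Slc5a2, Slc5a12, Slc4a4 and Slc2a2 had rho between 0.37 and 0.80 in their 6 pairs, and Slc5a1, Slc5a10, Slc2a5 and Slc5a8 had rho between 0.74 and 0.96 in theirs. Of the 16 pairs between the sets, 2 had a rho above 0, and the range was −0.61 to 0.14. Between the sets the adjusted permutation p of rho was under 0.05 only for Slc5a1 with Slc5a2 (0.0142) and Slc5a2 with Slc5a10 (0.031). Within the first set it was above 0.05 for Slc5a2 with Slc4a4 (0.17), Slc5a2 with Slc2a2 (0.136) and Slc2a2 with Slc4a4 (0.141). Most pairs between the sets could thus not be told from a rho of 0. Slc9a3 and Slc13a3 had a rho of 0.77 with each other (permutation p = 0.00014, adjusted 0.000787) and an r of 0.79 (permutation p = 6e-05, adjusted 0.000386). Slc9a3 had rho of 0.62 to 0.84 with the genes of the second set and −0.05 to 0.34 with those of the first. For Slc13a3 these ranges were 0.44 to 0.63 and 0.17 to 0.28. By rho both genes were closer to the second set, so the 2 sets are not the only way to arrange the transporters.

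The 2 glucose carriers of the lumen had the lowest r and rho of the 45 pairs. Slc5a1 and Slc5a2 had r = −0.58 (permutation p = 0.00642, adjusted 0.0206) and rho = −0.61 (permutation p = 0.00506, adjusted 0.0142). Without the 2 animals farthest from the median of Slc5a1 r was −0.55, and extreme animals of Slc5a2 were not left out by this. With the group means removed r was −0.56 but rho was −0.40, and Slc5a2 with Slc5a10 was then the lowest by rho, at −0.50. Among the 6 Ctrl animals alone r was 0.13, and among the 14 treated animals it was −0.78. In Ctrl r was also above 0 for the other pairs between the sets, such as 0.36 for Slc5a12 with Slc5a10, which had −0.67 in the treated animals. Whether the correlation differed between Ctrl and treated animals was not tested.

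**Figure D3:**
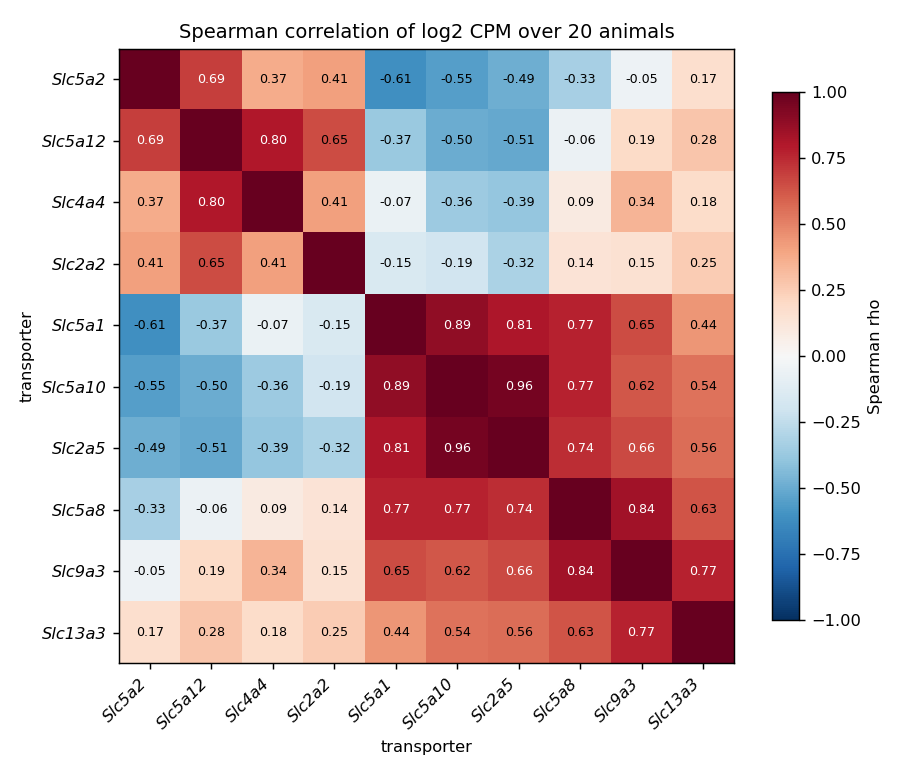
Spearman correlation of log2 CPM for the 10 transporters over the 20 animals left without the 4 libraries that stood apart, with red above 0 and blue below 0. Slc5a2, Slc5a12, Slc4a4 and Slc2a2 form one red block and Slc5a1, Slc5a10, Slc2a5 and Slc5a8 another, and most squares between the blocks are blue.

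**Figure D4:**
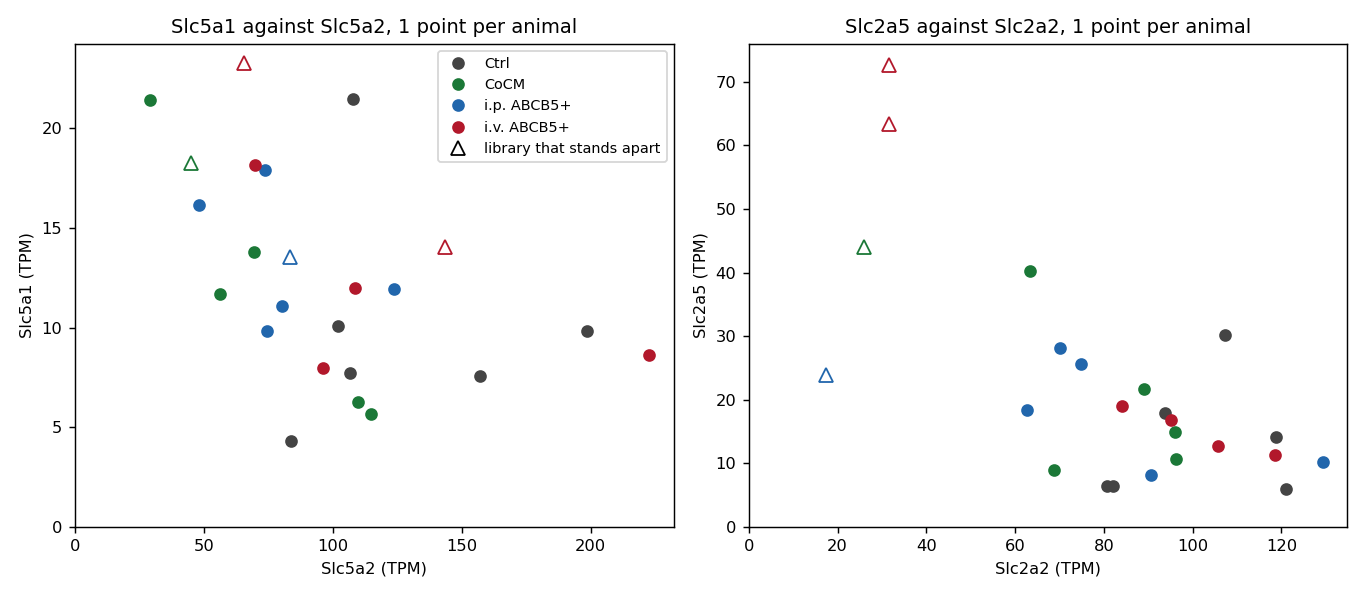
Slc5a1 against Slc5a2 (left) and Slc2a5 against Slc2a2 (right) in TPM, 1 point per animal, coloured by group, with open triangles for the 4 libraries that stood apart. At left the 3 highest Slc5a2 levels go with low Slc5a1 levels, and at right the triangles lie at 17.3 to 31.6 TPM of Slc2a2.

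For each transporter the gene most like it was the one of 11643 others with the highest rho over the 20 animals. For Slc5a2 it was Slc34a3, a sodium-phosphate carrier of the proximal tubule, with a rho of 0.944. For Slc5a12 it was Pakap (0.935), for Slc4a4 Tanc2 (0.961) and for Slc2a2 Steap2 (0.880), the lowest of the 10 values. For Slc5a10 it was F2, the gene of prothrombin, with the highest value, 0.992. For Slc2a5 it was Gss, glutathione synthetase (0.977), for Slc5a1 B3galt5 (0.946) and for Slc5a8 Unc5cl (0.944). For Slc9a3 it was Plpbp (0.934) and for Slc13a3 Serpinc1, the gene of antithrombin (0.953). All of these share the libraries and their depth.

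Other genes of the same pathways were read from lists chosen for their role. In none of the 4 lists and 4 comparisons did a gene pass the adjusted threshold by edgeR. A list of 14 held other genes of the sugar carrier families Slc2a and Slc5a, and Pdzk1ip1. Not all of their products carry sugars. Of these 14 genes, 1 had an unadjusted p under 0.05 in CoCM, 1 in the i.p. and 4 in the i.v. group, all higher, beside 11.9%, 1.77% and 5.78% of all genes in either direction. These counts were 2 (1 higher and 1 lower), 1 and 0 without the 4 libraries. Slc2a1, the GLUT1 carrier found in most cells, was at 72.2 ± 5.72 CPM in Ctrl and at 95.5 ± 17.6, 96.8 ± 25.3 and 86.6 ± 14.5 CPM in CoCM and the i.p. and i.v. groups (mean ± SD, n = 6). Its log2 fold changes were 0.40 ± 0.14, 0.42 ± 0.14 and 0.26 ± 0.14 (SE), with adjusted p-values of 0.342, 0.978 and 0.673 by edgeR, and 0.29, 0.28 and 0.12 without the 4 libraries. Slc5a9, the mannose and glucose carrier SGLT4, had log2 fold changes of 0.96 ± 0.68, 0.58 ± 0.68 and 1.58 ± 0.69, or 0.58, 0.47 and 0.12 without them.

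Of 14 other genes of monocarboxylate and dicarboxylate handling, 1 was lower at an unadjusted p under 0.05 in CoCM (11.9% of all genes in either direction). It was Slc16a1, the MCT1 carrier that passes lactate without sodium, at 23.5 ± 5.76 CPM in Ctrl and 12.2 ± 4.84 CPM in CoCM (mean ± SD, n = 6). The log2 fold change was −0.94 ± 0.28 (SE) with an unadjusted p of 0.00263 and an adjusted p of 0.255 by edgeR. In the i.p. and i.v. groups it was −0.53 ± 0.27 and −0.22 ± 0.27. The 3 values were −0.85, −0.41 and −0.12 without the 4 libraries. In the i.p. group 1 gene was higher at an unadjusted p under 0.05 (1.77% of all genes in either direction), and in the i.v. group 0 genes were under it (5.78%). This was Emb, embigin, which partners such carriers at the membrane, with log2 fold changes of 0.37 ± 0.18, 0.47 ± 0.18 and 0.17 ± 0.18 in CoCM, i.p. and i.v. animals. In the other 20 animals they were 0.26, 0.29 and 0.05, and in the i.p. group 0 genes of this list had an unadjusted p under 0.05. The 14 partners in sodium and bicarbonate handling had 0 genes under an unadjusted p of 0.05 in CoCM and i.p. ABCB5+, and 3 in the i.v. group, all higher, beside the same shares of all genes. In the other 20 animals there were 1 in CoCM, a lower value, and 0 in both cell groups. Sgk1, a kinase that raises sodium transport, had log2 fold changes of 0.43 ± 0.28, −0.05 ± 0.28 and 0.61 ± 0.28, and Car4, the membrane carbonic anhydrase, 0.23 ± 0.30, 0.47 ± 0.30 and 0.63 ± 0.30. These came to 0.26, −0.10 and 0.56 for Sgk1 and 0.04, 0.24 and 0.12 for Car4 without the 4 libraries.

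In the i.v. group, 8 of 8 enzymes of gluconeogenesis and fructose use were above 0 with a median log2 fold change of 0.94, and 7 of 10 transporters with a median of 0.65, beside 52.6% of all genes above 0 and a median of 0.01. Without the 4 libraries 3 of 8 enzymes were above 0 with a median of −0.03, and 8 of 10 transporters with a median of 0.11, beside 48.3% of all genes. The enzymes had 2 genes at an unadjusted p under 0.05 in the i.v. group (5.78% of all genes), and 0 without the 4 libraries. Pck1, the committed enzyme of gluconeogenesis, was at 570.4 ± 486 CPM in Ctrl and 1343 ± 1088 CPM in the i.v. group (mean ± SD, n = 6), a log2 fold change of 1.24 ± 0.66 (SE) that was 0.36 without the 4 libraries. Khk, which starts fructose breakdown, had 1.21 ± 0.53, with an adjusted p of 0.673 by edgeR, and 0.035 without them. The 10 proximal tubule markers had a median of 0.94 in the i.v. group, 0.32 in CoCM and 0.29 in the i.p. group, or 0.02, −0.10 and −0.01 without the 4 libraries. The summed level of the enzymes had a median of 2768 TPM in Ctrl and 4395 TPM in the i.v. group, which came to 2622 TPM in the 4 i.v. animals other than 36 and 37. For the proximal tubule markers these medians were 4057, 5979.5 and 4440.4 TPM, and for the 10 transporters 533, 771 and 547 TPM. In CoCM the enzymes had a median of 0.16, beside the transporters' median of 0.08, which took in 4 values below 0 and 6 above, beside 51.4% of all genes above 0. Leaving out the 4 libraries, the transporters' median in CoCM was −0.30, with 4 of 10 above 0, and that of the enzymes −0.24, with 2 of 8 above 0. Of all genes 49.3% were above 0 there, with a median of −0.004. The proximal tubule markers were above 0 in 7 of 10 genes in CoCM, and in 4 of 10 without the 4 libraries, where their summed level had a median of 4173 TPM. The 4 endothelial markers were below 0 in CoCM, with a median log2 fold change of −0.37, and 2 had an unadjusted p under 0.05 by edgeR (11.9% of all genes). Without the 4 libraries the median was −0.35, again with 2 under that p (16.9% of all genes). Their summed level had a median of 251 TPM in Ctrl and 193 TPM in CoCM. Podocyte markers in CoCM were above 0 in 2 of 4 genes, and in 1 of 4 without the 4 libraries. In that second fit 2 of them were lower at an unadjusted p under 0.05 by edgeR (16.9% of all genes). In both fits 0 of 4 macrophage and 1 of 5 fibroblast markers were above 0. The principal and the intercalated cell markers were each above 0 in 4 of 4 genes in both. The part of these differences in the values of Slc5a2, Slc5a12 and Slc4a4 was not tested.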

How the data were processed

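Left kidney RNA of 24 rats, 6 per group, was sequenced on a BGISEQ-500. The authors deposited estimated counts, not normalized, and TPM values per animal, the latter scaled by the authors to transcript length and library total (sums of 964191 to 976409). The submitters' processing notes name Trim Galore 0.6.4, kallisto 0.4.6 and the build rn6. The methods of the study name DESeq2 for differential expression and a human hg19 gene model package, whose role for these rat data is not given in the sources used here. Symbols came from a RefSeq table of GRCr8, in which 17179 of 17334 identifiers were found.

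Groups were taken from the labels. Estimated counts were rounded, genes with low counts were removed by filterByExpr, libraries were scaled by TMM, and 1 mean per group was fitted to all 24 animals with the edgeR 4.0.16 quasi-likelihood test (R 4.3.3). The Benjamini-Hochberg adjustment ran over 12778 genes, with a threshold of 0.05. DESeq2 1.42.0 and limma 3.58.1 were run as alternatives. The standard error was the log2 fold change divided by the root of F, and the biological coefficient of variation was 0.299. Tests were run on simulated counts with known changes before use. Log2 CPM for correlations used a prior count of 2, with 100000 permutations of animals. A floor of 3 counts was 0.322 CPM in the smallest library and covers counting error only. Chi-square per degree of freedom was at least 10.6 between animals of a group, so no library was taken as a repeat of another.

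All 10 transporters were named in every comparison. Of each pathway list, genes passing the adjusted threshold were named, and otherwise the 2 with the smallest p over the 4 groups. For likeness, the non-member with the highest rho and an average log2 CPM above 1 was named. The transporters, the lists and the 4 libraries left out were chosen with earlier results of these data known. The alternatives were DESeq2, median-ratio scaling, fits with all genes kept or with 10 or more counts required in every sample, only the groups compared, limma voom with sample quality weights, limma on log2(TPM + 1) and log2(TPM + 0.1) with and without a filter, leaving out the 4 libraries, and leaving out each animal. For the gene lists, leaving out the 4 libraries was added after the data had been seen. Protein sequences were not used here. A further gene list is not reported here.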

Additional observations from a re-analysis of the deposited data

Results flagged for a closer look

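In 6 of the 40 sets of 6 animals (10 transporters in 4 groups), the highest animal lay far from the other 5 by Dixon's criterion on unlogged CPM. Chance gives about 2 only for normal values in independent sets. The 40 sets share animals and CPM was not put on a log scale, so the 6 cannot be read as an excess over chance. The share over all genes was not computed. Slc13a3 was at 1085 CPM in CoCM animal 39, against 269 to 471 CPM in the rest of that group, and at 1097 CPM in i.p. ABCB5+ animal 38, against 317 to 514 CPM. Slc9a3 was at 147 CPM in CoCM animal 39, against 31.7 to 61.0 CPM. These 3 values belong to libraries that stood apart from the rest.

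The other 3 do not. Slc5a12 was at 143 CPM in Ctrl animal 22, against 68.0 to 93.8 CPM in the other controls, and at 214 CPM in i.v. ABCB5+ animal 43, against 37.98 to 85.6 CPM. In the same animals Slc5a2 was at 313 and 343 CPM, the highest of each group. Slc5a1 was at 37.4 CPM in Ctrl animal 24, against 8.47 to 18.8 CPM. In the direct contrast of the 2 cell groups, 0 of 10 transporters passed the adjusted threshold by edgeR, and 0 of 10 had an unadjusted p under 0.05.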

How the results depend on the processing

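The count of transporters past the adjusted threshold was 0 in all comparisons with edgeR, and every alternative gave 0 again except 1: limma voom with sample quality weights called 1 transporter in CoCM, Slc5a12, at a log2 fold change of −1.34. Leaving out each animal in turn gave from 0 to 0 transporters in every comparison over 24 fits, with lowest adjusted p-values of 0.159 in CoCM, 0.821 in i.p., 0.468 in i.v., 0.940 in i.p. against i.v. ABCB5+ and 0.663 over the 4 groups by edgeR. Over the alternatives the adjusted p of Slc5a12 in CoCM ranged from 0.0492 to 0.513, that of Slc4a4 from 0.112 to 0.513 and that of Slc5a2 from 0.0866 to 0.513, and their signs were the same in all 10. Over all genes in CoCM, the number past the adjusted threshold was 1 with edgeR, 79 with DESeq2 and 183 with limma voom with sample quality weights.

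The sign of the log2 fold change turned in 34 cases, and the cause was not tested. Without the 4 libraries it came to −0.40 for Slc9a3 and −0.41 for Slc13a3 in CoCM, −0.032 and −0.11 for the same genes in i.p., −0.038 for Slc5a2, 0.20 for Slc5a12 and 0.16 for Slc4a4 in i.v., and 0.27 for Slc5a1, 0.36 for Slc5a10 and 0.35 for Slc2a5 in i.p. against i.v. ABCB5+. With limma voom it came to −0.31 for Slc9a3 and −0.27 for Slc13a3 in CoCM, −0.40 for Slc5a2 and 0.12 for Slc4a4 in i.v., and 0.38 for Slc5a1, 0.17 for Slc5a8, 0.55 for Slc5a10, 0.55 for Slc2a5, 0.058 for Slc9a3 and 0.046 for Slc13a3 in i.p. against i.v. ABCB5+. With limma on log2(TPM + 1), with and without the filter, Slc9a3 in CoCM came to −0.056, Slc5a2 in i.v. to −0.17, and Slc5a1 and Slc4a4 in i.p. against i.v. ABCB5+ to 0.0043 and 0.071. With log2(TPM + 0.1) the same 4 came to −0.057, −0.17, 0.0092 and 0.079. Slc5a2 in i.v. ABCB5+ came to −0.0073 without the low-count filter and to −0.015 with at least 10 counts in every sample. Slc5a8 gave no value under that filter.

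No paired analysis was possible because no animal number occurs in more than 1 group. With 6 animals a group, 95% intervals of the transporters' log2 fold changes were wider than 1 unit, so small changes were not detectable at this spread between animals.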
